A study of Mus musculus with 32 samples.

Results

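Integrin and laminin genes were followed through 32 mouse melanomas. The members were all genes whose GENCODE mouse symbol is that of an integrin alpha chain, an integrin beta chain from Itgb1 to Itgb8, or a laminin chain, and the rule used no measured value. It found 37 of the 50600 genes in the deposited tables. Of these, 18 encode integrin alpha chains, 8 integrin beta chains and 11 laminin chains (5 alpha, 3 beta and 3 gamma). By textbook role, 9 members were placed in an epithelial class, 9 in a leukocyte and platelet class, 7 in a class of melanoma and widely expressed integrins, and 12 in a class of stromal, vascular and muscle members.

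Integrins are heterodimeric receptors at the cell surface, each made of an alpha and a beta chain, that tie the cytoskeleton to the extracellular matrix or to other cells. Laminins are cross-shaped trimers of an alpha, a beta and a gamma chain that build basement membranes, the sheets under epithelia and around vessels, muscle fibres and nerves. In skin, the receptor of Itga6 and Itgb4 and the laminin that holds Lama3 and Lamb3 anchor basal keratinocytes to the dermis, and melanoma cells are known for integrins built on Itgb1 and Itgav.

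The tumours were primary melanomas of mice on a C57BL/6J background. All mice carried Tyr::NrasQ61K, an oncogene driven in melanocytes by the tyrosinase promoter, lacked a copy of the tumour suppressor gene Cdkn2a (Cdkn2a-/+) and had both alleles of the E-cadherin gene flanked by sites for Cre (Cdh1F/F). Ecad tumours had no Cre and ΔEcad tumours had, by the study's methods, Tyr::CreA, so that Cdh1 is deleted in melanocytic cells and stays intact in other cells of the tissue. The labels of the ΔEcad tumours list Tyr::NRAS/° in that place and the ages of the mice are not given in the sources used here. There were 8 tumours each of Ecad males, Ecad females, ΔEcad males and ΔEcad females, numbered 1 to 8 in each group, and p-values measure the spread between these tumours.

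Total counts were 24036333 to 63923086 per tumour. Cdh1 was at 146 ± 87.5 and 13.05 ± 21.74 TPM (a level that corrects for length of the gene and library size) in Ecad and ΔEcad males, and at 50.5 ± 52.9 and 55.2 ± 54.1 TPM in Ecad and ΔEcad females (SD, n = 8 each), so in females its RNA did not separate the genotypes and directions rest on the labels. Dct, a pigment enzyme gene, was at 1466 TPM or more in all tumours but ΔEcad male 7, which had 4.98 TPM. ΔEcad female 3 was listed at 0 for all 6 T cell markers, and ΔEcad male 2 had 0 counts over 4 Y-linked genes (1459 to 8800 in the other males) and 6.41 TPM of Xist (at most 0.2). Counts of calls are therefore also given without these 3 tumours. In bulk tissue, fewer cells of a type and less RNA per cell cannot be told apart.

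Promoters of members that moved with a partner chain across tumours are shown first. RefSeq promoters on GRCm38.p6 were listed for 23 of the 37 members, and the 250 bases before the start site are printed for 5 of them. Itgam and Itgax are neighbours on chromosome 7, encode partners of the same leukocyte beta chain, and are at chr7:128062390-128062639 and chr7:128129300-128129549. Itgav at chr2:83724147-83724396 and Itgb1 at chr8:128685404-128685653 are partners in melanoma cells, and Lamb3 at chr1:193301744-193301993 (the first of its 2 listed promoters) went with Lama3. All 5 are on the plus strand and run 5′ to 3′. Capitals mark matches on either strand to GAGGAA (a core bound by ETS factors such as PU.1), TGANTCA (an AP-1 type site) or GGGCGG (a GC box), which do not overlap here.
Itgam: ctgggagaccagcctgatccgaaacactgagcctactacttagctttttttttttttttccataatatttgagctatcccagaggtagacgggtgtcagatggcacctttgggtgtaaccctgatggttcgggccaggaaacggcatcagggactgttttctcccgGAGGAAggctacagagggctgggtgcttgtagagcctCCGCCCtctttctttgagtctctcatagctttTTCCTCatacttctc
Itgax: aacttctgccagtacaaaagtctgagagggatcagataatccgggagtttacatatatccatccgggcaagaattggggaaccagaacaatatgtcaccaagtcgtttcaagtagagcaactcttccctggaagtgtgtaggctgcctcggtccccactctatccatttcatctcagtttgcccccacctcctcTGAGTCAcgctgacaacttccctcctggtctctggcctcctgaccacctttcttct
Itgav: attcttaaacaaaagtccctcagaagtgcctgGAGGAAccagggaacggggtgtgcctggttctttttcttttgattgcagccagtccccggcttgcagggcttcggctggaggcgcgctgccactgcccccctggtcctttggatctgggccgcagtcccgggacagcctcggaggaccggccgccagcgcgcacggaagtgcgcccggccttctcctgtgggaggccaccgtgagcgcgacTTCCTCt
Itgb1: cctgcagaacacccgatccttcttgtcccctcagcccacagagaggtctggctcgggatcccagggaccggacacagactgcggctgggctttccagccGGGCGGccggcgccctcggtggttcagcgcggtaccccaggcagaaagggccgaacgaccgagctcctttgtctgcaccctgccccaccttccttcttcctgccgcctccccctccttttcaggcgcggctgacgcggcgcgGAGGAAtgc
Lamb3: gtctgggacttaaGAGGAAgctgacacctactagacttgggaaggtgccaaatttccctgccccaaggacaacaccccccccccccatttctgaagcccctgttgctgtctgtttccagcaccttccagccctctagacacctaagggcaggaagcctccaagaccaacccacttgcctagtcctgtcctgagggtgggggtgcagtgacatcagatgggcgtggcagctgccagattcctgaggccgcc
GAGGAA was found in 13 of 26 member promoters (50%) and in 23.25% of all 32851 listed promoters. TGANTCA was in 1 member promoter, that of Itgax, and in 6.75% of all, and GGGCGG in 34.6% of member promoters and 32.74% of all. Itgam and Itgav held GAGGAA on both strands, Lamb3 held it once far from the start site, and Itgb1 held it 9 bases before the start. Matches are a description of these letters in these windows.

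The members differed widely in level. Over all tumours, their summed level was 369 to 2440 TPM, lowest in ΔEcad male 1 and highest in ΔEcad female 8. At 1 TPM or more, 15 members were found in all 32 tumours, 21 in some and 1, Itgad, in none. Itgb1, the beta chain that pairs with most alpha chains, had the highest mean level of the 37, at 476 ± 246 TPM (SD, n = 32), and was the leading integrin beta chain in all 32 tumours. Lamb2 followed at 96.6 ± 38.2 TPM, then Itga5, the fibronectin receptor chain, at 93.7 ± 63.5 TPM, Itgb5 at 84.7 ± 49.6 TPM and Itga4 at 80.7 ± 101 TPM (SD, n = 32 each). These 4 means differed by less than the spread between tumours.

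**Figure D1:**
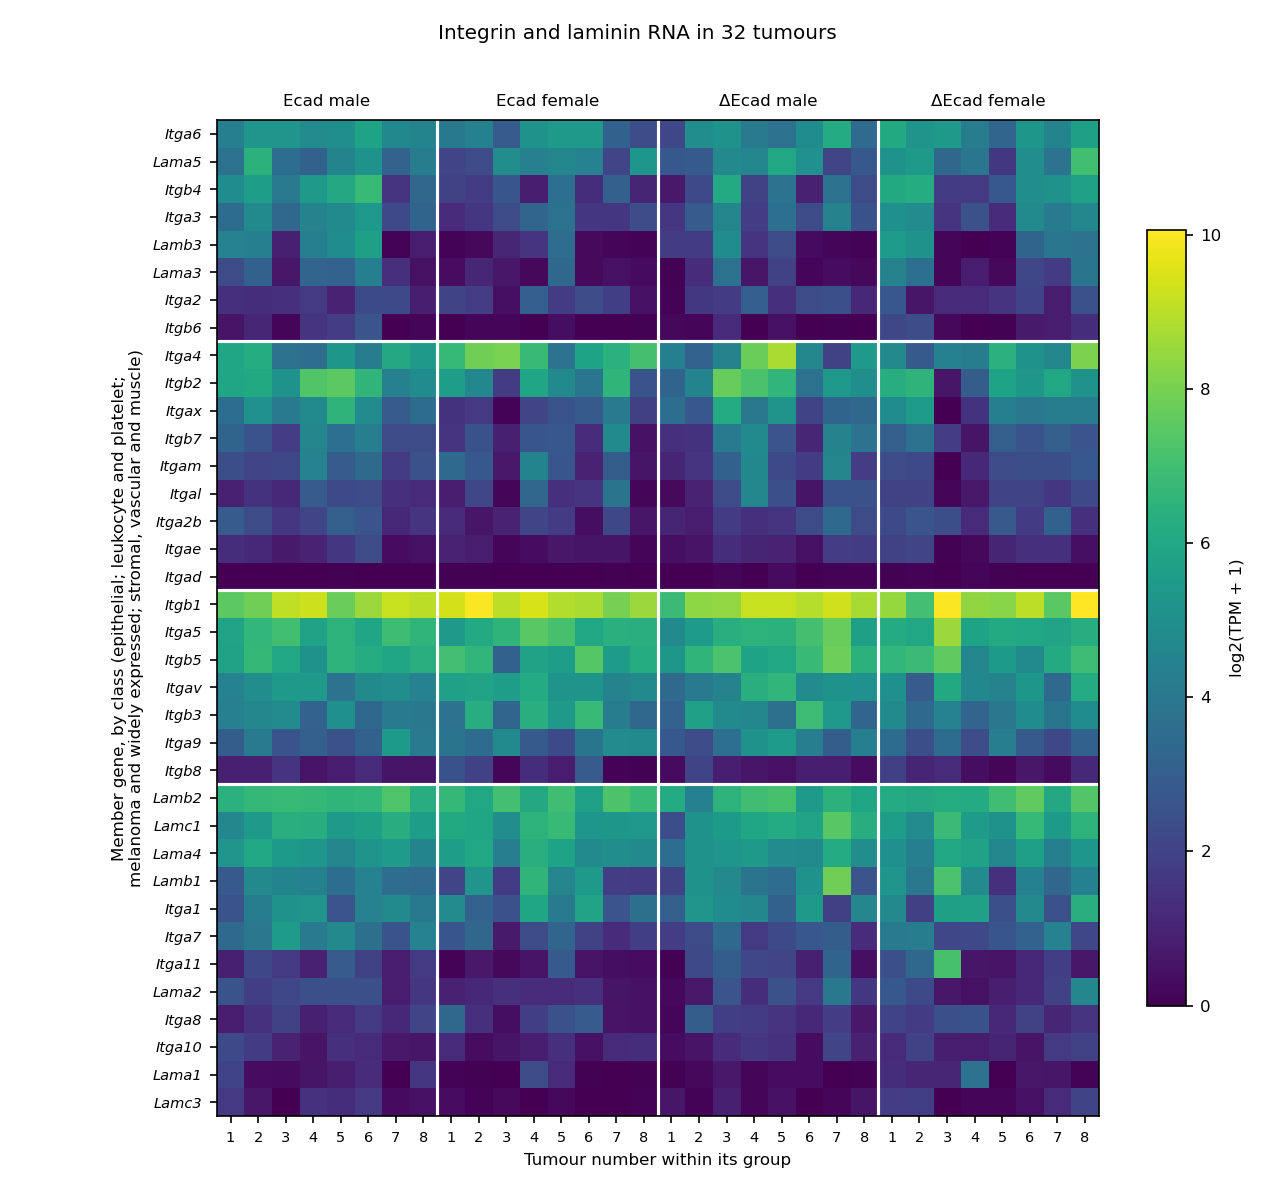
Heat map of 36 members (rows, in 4 classes split by white lines) in the 32 tumours (columns, 8 per group), as log2(TPM + 1). The row of Itgb1 is the brightest (116 to 1063 TPM), the epithelial rows from Itgb4 to Lama3 are bright in some tumours of each group, and Itgad is dark throughout (at most 0.24 TPM).

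Laminin RNA was led by Lama4 or Lama5 among the alpha chains, Lamb2 or Lamb1 among the beta chains and Lamc1 among the gamma chains. Lama4, the alpha chain of vessel and muscle basement membranes, held a median of 60.8% of the alpha chain RNA (18.9 to 91.5%) and was the leading alpha chain in 24 tumours, and Lama5 led in the other 8 (median 31.9%, 3.62 to 63.3%). Lamb2 was the leading beta chain in 28 tumours, with a median of 74.8%, and Lamb1 in 4. Those 4 were Ecad female 4, ΔEcad males 2 and 7 and ΔEcad female 3, with 58.3, 60.1, 72.4 and 66.8% of the beta chain RNA. Lamc1 led the gamma chains in all 32 tumours.

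The epidermal chain Lamb3 took a variable part. It held 0.0365 to 29.6% of the beta chain RNA in Ecad males (median 13.3%), 0.057 to 7.05% in Ecad females (median 0.184%), 0.0376 to 19.96% in ΔEcad males (median 1.97%) and 0.0199 to 29.5% in ΔEcad females (median 5.20%). Tumours with under 0.1% of Lamb3 occurred in all 4 groups.

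**Figure D2:**
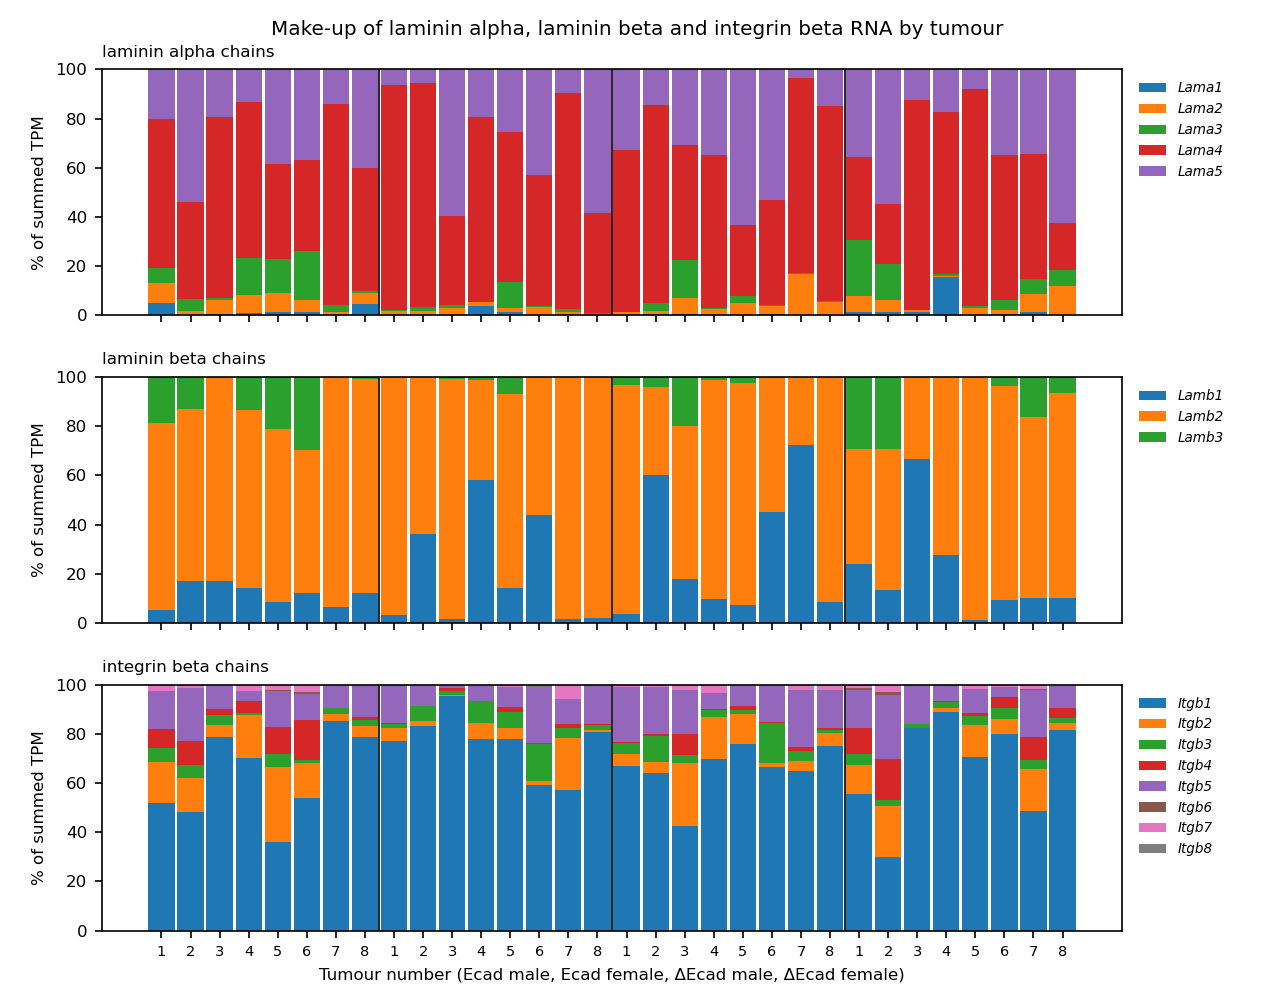
Stacked bars of the share (% of summed TPM) of each laminin alpha, laminin beta and integrin beta chain in every tumour, with the 4 groups of 8 separated by black lines. Itgb1 is the largest block of its panel in all 32 tumours, and Lamb1 rather than Lamb2 is the largest in 4.

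Among epithelial members, Itgb4 (ENSMUSG00000020758, GRCm38 chromosome 11, 115974709 to 116008412, plus strand), the beta chain of hemidesmosomes, varied over a wide range. Its lowest, median and highest levels were 1.91, 35.5 and 111 TPM in Ecad males, 0.79, 2.69 and 11.9 TPM among Ecad females, then 0.61, 3.81 and 69.8 TPM in ΔEcad males, and 2.24, 32.6 and 74.7 TPM in ΔEcad females. Ecad females sat low as a group, and every pair of groups overlapped. Exons of Itgb4 are shared with B230344G16Rik on the other strand, so its counts are uncertain. Among ΔEcad females, tumours 1, 2, 6, 7 and 8 had 30.0 to 74.7 TPM of Itgb4 and tumours 3, 4 and 5 had 2.24 to 5.89 TPM.

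The keratinocyte markers followed the same tumours. Their summed level over 8 markers was 6315 to 33818 TPM in those 5 ΔEcad females and 1.74 to 7.82 TPM in the other 3. By group, the sums ran from 1.39 to 22533 TPM in Ecad males, from 0.2 to 1789 TPM in Ecad females, from 1.88 to 14737 TPM in ΔEcad males and from 1.74 to 33818 TPM in ΔEcad females. All 8 markers had over 3 counts in at least 1 tumour of every group, while Krt5 was listed at 0 in some tumours of each group. The highest sum among Ecad females, 1789 TPM, was in Ecad female 5, which also had the highest Itgb4, Itga3, Itgb6, Lama3 and Lamb3 of its group. In an edgeR fit with keratinocyte and melanocytic scores as covariates, the median log2 fold change of the 9 epithelial members was 0.10 in the female genotype, -0.27 in the male genotype, -0.20 in the Ecad sex, 0.21 in the ΔEcad sex and 0.52 in the interaction comparison. Without the scores these medians were 2.01, -1.18, -1.97, 0.77 and 3.22. The fit with the scores called no member. Over all 17717 genes it called 9, 0, 14, 7 and 2 in the same comparisons.

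The other epithelial members differed in how far they ranged. Itga3 (chromosome 11, 95044474 to 95076801, minus strand), a laminin receptor chain of epidermis, had medians of 16.1, 2.98, 5.55 and 20.2 TPM in Ecad males, Ecad females, ΔEcad males and ΔEcad females, and its highest value was 12.5 TPM in the group of Ecad females and 31.7 TPM in that of ΔEcad females. Itgb6 (chromosome 2, 60598292 to 60722643, minus strand), the chain of an epithelial receptor that activates TGF-beta, was low, from 0 to 5.32 TPM over all tumours, with 5 Ecad females at or under 3 counts. Of the epidermal anchoring laminin, Lama3 ranged from 0.03 to 21.8 TPM and Lamb3 from 0.02 to 51.5 TPM. Lama5, the main alpha chain of mature epithelial basement membranes, was at 24.5 ± 26.3 TPM, Itga6 at 28.8 ± 17.5 TPM and Itga2, a collagen receptor chain, at 2.52 ± 1.82 TPM (SD, n = 32 each).

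**Figure D3:**
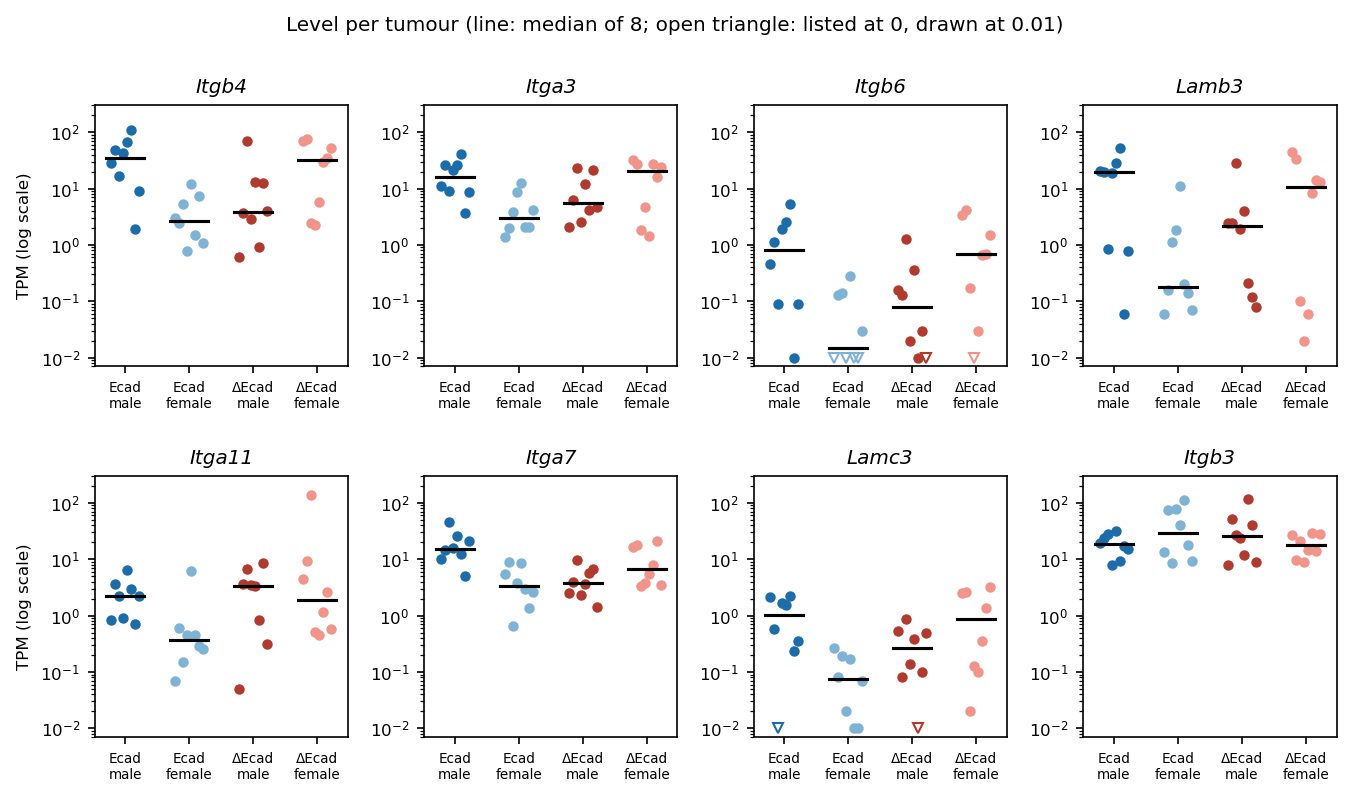
Level of 8 members in each tumour (points, TPM on a log axis) by group, with the median of the 8 tumours as a line and values of 0 drawn as open triangles at 0.01. Ecad females sit lowest for Itgb4, Itga3, Itgb6, Itga11 and Lamc3, and all groups overlap; the Itga11 point at 139 TPM is ΔEcad female 3.

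The first comparison was of ΔEcad with Ecad females, to find genes that follow E-cadherin loss in that sex. The edgeR quasi-likelihood test called none of the 36 members tested (adjusted p under 0.05 over all genes and an absolute log2 fold change over 1), against 213 of 17717 genes, or 1.20%. At an unadjusted p under 0.05 there were 13 members, 36.1% of those tested, 11 with a higher and 2 with a lower estimate in ΔEcad, beside 15.3% of all genes. By class these were 4 of 9 epithelial members, 3 of 8 leukocyte and platelet members, 2 of 7 melanoma and widely expressed members and 4 of 12 stromal, vascular and muscle members. The median log2 fold change was 2.01 over the epithelial members, 0.41 over all members and -0.02 over all genes.

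Itga11 (chromosome 9, 62677826 to 62783982, plus strand), a fibrillar collagen receptor chain of fibroblasts, had the smallest p, with a log2 fold change estimated at 4.05 (SE 1.12, edgeR adjusted p 0.0545). Its lowest, median and highest levels were 0.07, 0.375 and 6.17 TPM in the Ecad group and 0.45, 1.88 and 139 TPM in the ΔEcad group. The highest belonged to ΔEcad female 3, the next to ΔEcad female 2 at 9.41 TPM, and the groups overlapped. Without ΔEcad female 3 the mean of the ΔEcad group was 2.74 rather than 19.8 TPM, beside 1.06 TPM in the Ecad group, and the estimate was 1.38 (edgeR adjusted p 0.437). Lamc3 (chromosome 2, 31887291 to 31946539, plus strand), a laminin gamma chain that shares exons with Gm13441 on the other strand, followed with 3.49 (SE 1.013, edgeR adjusted p 0.0632) at means of 1.30 ± 1.33 and 0.102 ± 0.0969 TPM in ΔEcad and Ecad females (SD, n = 8 each).

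The epithelial chains came next. Itgb4 had a log2 fold change estimated at 2.89 (SE 0.86, edgeR adjusted p 0.0665), Itga3 of 1.80 (SE 0.59, edgeR adjusted p 0.0961) and Itgb6 of 4.06 (SE 1.33, edgeR adjusted p 0.0961). With keratinocyte and melanocytic scores in the edgeR fit, these estimates were 0.33 for Itgb4, 0.24 for Itga3 and 0.53 for Itgb6, with adjusted p of 0.931, 0.944 and 0.927, while Itga11 had 3.74 (adjusted p 0.344) and Lamc3 had 1.55 (adjusted p 0.712). DESeq2 called 5 members, Itga3, Itgb4, Itgb6, Lama2 and Lamc3, in a comparison where it called 6.52% of all genes. Without Ecad female 5, edgeR called 5 members, among them Itga11, Itga3, Itgb4 and Lama3. The count over all genes in that fit is not given here. Without the 3 doubted tumours edgeR called Itgb4 and Lamc3, with 569 of 18072 genes, beside 213 of 17717 in the main fit. A limma test on log2(TPM + 1) called no member in any comparison. Over all 17717 genes it called 1, 0, 9, 6 and 0 in the female genotype, male genotype, Ecad sex, ΔEcad sex and interaction comparisons. Leaving out the 3 doubted tumours gave no member call in the last 4 of these, beside 0, 13, 8 and 0 of 18072 genes.

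In males, the same comparison also gave no call by edgeR among the 36 members, beside 0 of 17717 genes (0%), and none by DESeq2 (0.205% of all genes). At an unadjusted p under 0.05 there were 2 members (5.56%, beside 10.2% of all genes). Itga7 (chromosome 10, 128933818 to 128958282, plus strand), the muscle laminin receptor chain, had a log2 fold change estimated at -1.87 (SE 0.50, edgeR adjusted p 0.365). Its lowest, median and highest levels were 5.10, 15.4 and 45.9 TPM in Ecad males and 1.44, 3.82 and 9.81 TPM in ΔEcad males, overlapping at the low end of the Ecad males. Itgb3, a vitronectin receptor chain known from invasive melanoma, followed with 1.21 (SE 0.52, edgeR adjusted p 0.448) and Lama1, a laminin chain of embryonic basement membranes, with -2.34 (SE 1.19, edgeR adjusted p 0.499). Of the 9 epithelial members, 8 had a negative estimate, with a median of -1.18 beside 0.11 over all genes.

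**Figure D4:**
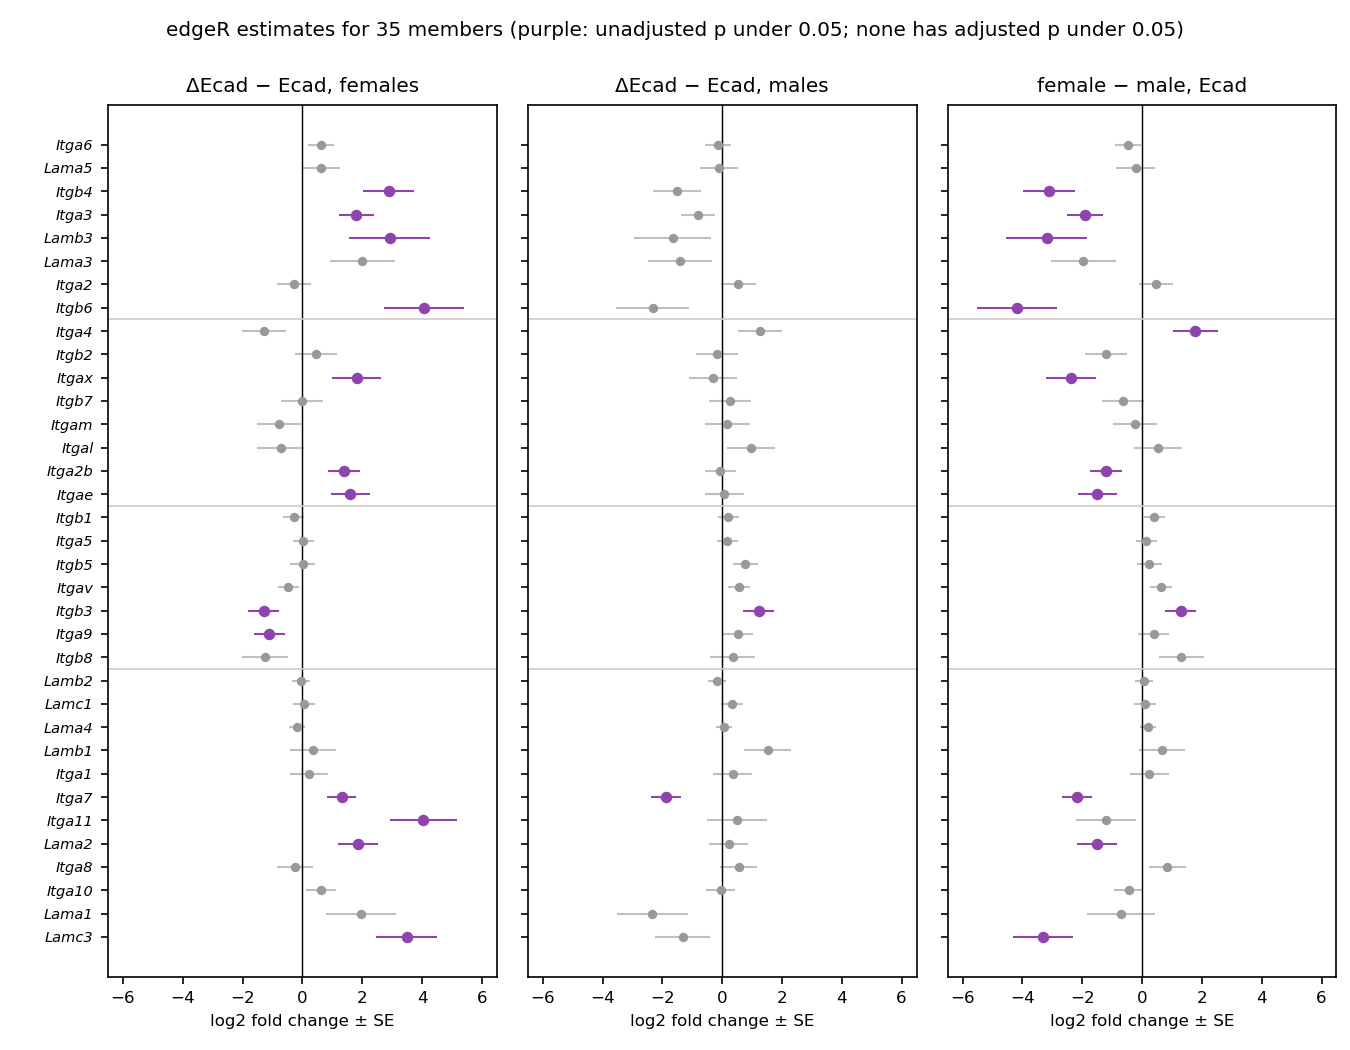
Log2 fold changes from edgeR with their SE (bars) for 35 of the members tested, in 4 classes, for ΔEcad minus Ecad in females, the same in males, and female minus male among Ecad tumours; purple marks an unadjusted p under 0.05. The epithelial members other than Itga2 lie above 0 in females (up to 4.06 for Itgb6) and below 0 in males and in the Ecad sex comparison, and no member had an adjusted p under 0.05.

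Female against male tumours were compared within each genotype. Among Ecad tumours, edgeR called none of the 36 members, beside 0.0508% of all genes, and 13 had an unadjusted p under 0.05 (36.1%, beside 16.0% of all genes), 11 of them lower in females. Itga7 had a log2 fold change estimated at -2.18 (SE 0.51, edgeR adjusted p 0.0869), and its levels reached 8.87 TPM in the females and began at 5.10 TPM in the males. Itgb4 had -3.12 (SE 0.86, edgeR adjusted p 0.0994) and Lamc3 -3.32 (SE 1.006, edgeR adjusted p 0.112), and both groups overlapped for each. With the 2 marker scores in the fit, the estimate of Itgb4 was -0.54. DESeq2 called Itga3, Itga7, Itgax, Itgb4, Itgb6 and Lamc3, and 5.00% of all genes.

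Skeletal muscle markers were set beside Itga7. Over 5 markers they summed to 387 to 14295 TPM in Ecad males, 2.63 to 3914 TPM in their female counterparts, 2.71 to 1996 TPM in ΔEcad males and 4.21 to 23047 TPM in ΔEcad females, with none at or under 3 counts throughout a group. ΔEcad female 7 had the highest sum and the highest Itga7 of its group (21.0 TPM), whereas Ecad male 3 had the highest Itga7 of all tumours and the lowest sum of the Ecad males (387 TPM). The part of muscle tissue in the Itga7 levels was not tested. Exons of Itga7 are shared with Mettl7b on the other strand.

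Among ΔEcad tumours, neither edgeR (0.0395% of all genes) nor DESeq2 (0.158%) called a member between the sexes, and 5 had an unadjusted p under 0.05 (13.9%, beside 8.81% of all genes). Lama1 had a log2 fold change estimated at 3.59 (SE 1.25, edgeR adjusted p 0.484), at 0.02 to 13.1 TPM in females and 0.02 to 0.59 TPM in males. Without its highest tumour, ΔEcad female 4, the female mean was 0.687 rather than 2.24 TPM. Itga9, a receptor chain for tenascin and VCAM-1, had -1.24 (SE 0.52, edgeR adjusted p 0.539) and Itgb3 -1.22 (SE 0.52, edgeR adjusted p 0.539).

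The difference between the female and the male genotype effect was tested as an interaction. No member was called by edgeR (0 of 17717 genes, or 0%), and 13 had an unadjusted p under 0.05 (36.1%, beside 17.7% of all genes). Of the 9 epithelial members, 6 were among these, all with a positive difference, and the median over the class was 3.22 beside -0.16 over all genes. Itga7 had a difference of 3.19 (SE 0.70, edgeR adjusted p 0.0509), Itgb4 of 4.41 (SE 1.18, edgeR adjusted p 0.0557) and Itgb6 of 6.39 (SE 1.81, edgeR adjusted p 0.0610). With the 2 marker scores in the fit these were 2.17, 1.13 and 1.85. DESeq2 called Itga3, Itga7, Itgb3, Itgb4, Itgb6 and Lamc3, with 6.26% of all genes. Without Ecad female 5, edgeR called 9 members, and the count over all genes in that fit is not given here. The 5 comparisons share tumours, so their calls are not independent of each other.

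The leukocyte and platelet members were led by Itga4 and Itgb2. Itgb2, the beta chain shared by the leukocyte integrins, was at 58.0 ± 53.1 TPM, and its partners Itgax at 17.8 ± 20.6, Itgam at 6.34 ± 6.79 and Itgal at 3.53 ± 4.61 TPM, with Itgad at 0.0344 ± 0.0494 TPM (SD, n = 32 each) and below the filter for tests. Itgb7 was at 8.15 ± 7.83 TPM, its partner Itgae, the receptor chain by which T cells bind E-cadherin, at 1.09 ± 0.987 TPM, and the platelet chain Itga2b at 3.19 ± 2.36 TPM (SD, n = 32 each). ΔEcad female 3 had 0 counts of Itgam and Itgax and 0.53 TPM of Itgb2, where the other ΔEcad females had 6.80 to 92.3 TPM of Itgb2. That tumour also had the lowest macrophage marker sum of its group (11.7 TPM over 6 markers, against a group median of 1133 TPM) and 0 TPM over 6 T cell markers.

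Itga4 stood apart from the rest of its class. Its levels ran from 2.8 TPM in ΔEcad male 7 to 441 TPM in ΔEcad male 5, and its group medians were 40.4, 106, 22.8 and 24.5 TPM in Ecad males, Ecad females, ΔEcad males and ΔEcad females. Of all alpha chains it led in 10 tumours, Itga5 in 21 and Itgax in 1, Ecad male 5. Itga4 had correlations of -0.02 with the macrophage and -0.08 with the T cell marker score. Of the 8 tested members of the class, 6 were positively related to each of these scores. The share of all genes related to these scores was not computed. Exons of Itga4 are shared with Cerkl on the other strand.

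Of the melanoma and widely expressed integrins, 6 of 7 were at 1 TPM or more in all 32 tumours and Itgb8 in 11. Itga5 was at 26.2 to 369 TPM, with 55.4 to 75.7 TPM in the ΔEcad females other than tumour 3, which held the highest value. Itgav, the alpha chain of vitronectin receptors, was at 36.6 ± 21.8 TPM, Itgb3 at 29.8 ± 28.5, Itga9 at 14.1 ± 11.4 and Itgb8 at 1.19 ± 1.42 TPM (SD, n = 32 each). For Itgb3, the lowest, median and highest levels were 7.89, 18.5 and 31.95 TPM in Ecad males, 8.73, 29.4 and 112 TPM among Ecad females, then 7.93, 25.4 and 118 TPM in ΔEcad males and 8.83, 17.8 and 28.9 TPM in ΔEcad females. There were 4 Ecad females and 3 ΔEcad males above every ΔEcad female, and all groups overlapped at the low end. These ΔEcad males were tumours 2, 6 and 7 (52.5, 118 and 39.9 TPM), and tumours 2 and 7 are among the 3 doubted tumours. Over the alternatives, the log2 fold change of Itgb3 ranged from 0.487 to 1.363 in the male genotype comparison. In the ΔEcad sex comparison it ranged from -1.367 to -0.491. None of the 7 members had a relation to the melanocytic score that passed the test (r from -0.30 to 0.26).

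Stromal, vascular and muscle members held the main laminin chains. Lamc1 was at 60.6 ± 33.2 TPM, Lama4 at 38.8 ± 16.9, Lamb1 at 30.4 ± 46.6 and Itga1, a collagen receptor chain, at 24.2 ± 19.8 TPM (SD, n = 32 each). Lamb1 was at 231 TPM in ΔEcad male 7 and 148 TPM in ΔEcad female 3, where the median of all 32 was 20.5 TPM. Low members were Lama2, the muscle laminin chain, at 3.35 ± 4.72 TPM, Itga8 at 2.51 ± 2.11, Itga10 at 1.30 ± 0.928, Lama1 at 1.04 ± 2.39 and Lamc3 at 0.707 ± 0.931 TPM, with Itga7 at 9.40 ± 9.40 and Itga11 at 6.68 ± 24.3 TPM (SD, n = 32 each).

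Genes that act with integrins were counted from 3 lists of 49 genes, of which 48 were tested. These were 27 genes of the intracellular adhesion complex, 4 of hemidesmosomes and 18 of ligands and basement membrane. None was called by edgeR in any of the 5 comparisons, and 7, 6, 7, 6 and 11 had an unadjusted p under 0.05 in the female genotype, male genotype, Ecad sex, ΔEcad sex and interaction comparisons. These were 14.6, 12.5, 14.6, 12.5 and 22.9% of the 48, beside 15.3, 10.2, 16.0, 8.81 and 17.7% of all genes. In females, the smallest p belonged to Tns1, an adaptor of mature adhesions, with a log2 fold change estimated at 1.49 (SE 0.47, edgeR adjusted p 0.0832), to Bcam, a receptor for Lama5 laminins, with 2.10 (SE 0.69, edgeR adjusted p 0.0967), and to Col17a1, a hemidesmosome collagen, with 5.46 (SE 1.81, edgeR adjusted p 0.0993). Levels of Col17a1 ended at 11.7 TPM among Ecad females and at 423 TPM among ΔEcad females, both starting below 1 TPM.

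Chains of the same receptor or trimer have to be made by the same cell. Across tumours, 36 textbook pairs were compared as log2 CPM (counts scaled to library size). Among them was a receptor chain with its ligand gene, Itgae with Cdh1, to which that rule does not apply. Of the 36 pairs, 15 had a permutation p under 0.05 after Benjamini-Hochberg adjustment over the pairs, 13 positive and 2 negative. Pairs of unrelated genes were not compared, so this count has no background beside it. The 2 values of a pair come from 1 library and share its scaling and its mixture of cells. All values below are over 32 tumours.

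Epidermal laminin chains and leukocyte pairs had high correlations. Lama3 and Lamb3 had r = 0.786 (rho 0.762, permutation adjusted p 5.14e-05), and 0.635 to 0.888 within the 4 groups. Itgb2 had 0.883 with Itgax, 0.847 with Itgam and 0.806 with Itgal (rho 0.778, 0.706 and 0.739), and with the 2 tumours most distant from the alpha chain's median left out, ΔEcad female 3 among them, these were 0.726, 0.680 and 0.715. Itgae and Itgb7 had 0.689 (rho 0.707). Exons of Itgam are shared with Gm49368 on the same strand.

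The widely expressed chains were less uniform. Itgav and Itgb1 had r = 0.837 (rho 0.804, permutation adjusted p 5.14e-05), and 0.592 to 0.976 within groups. Among collagen receptors Itga1 and Itgb1 had 0.517 (rho 0.499). Within groups this r was 0.0969 in Ecad females, 0.871 in Ecad males, 0.827 in ΔEcad females and -0.0145 in ΔEcad males. Itga1 shares exons with Gm49395 on the same strand. Among vessel laminin chains Lama4 had 0.579 with Lamc1 and 0.546 with Lamb1, and Lamb1 and Lamc1 had 0.455 (rho 0.563, 0.554 and 0.410). Itgav had 0.125 with Itgb3 (permutation adjusted p 0.575), -0.216 with Itgb5 (permutation adjusted p 0.309) and 0.0678 with Itgb8. Itga6 and Itgb4, the hemidesmosome pair, had 0.409 (permutation adjusted p 0.0483), which was 0.278 without Ecad female 8 and ΔEcad male 1 (permutation adjusted p 0.245). With all tumours kept, the rho of Itga6 and Itgb4 was 0.37 (permutation adjusted p 0.0834). With group means subtracted, their r was 0.257 (permutation adjusted p 0.288). Lamb1 and Lamc1 had 0.356 without ΔEcad male 7 and ΔEcad female 5 (permutation adjusted p 0.119).

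A pair of relations was negative. Itga10 and Itgb1 had r = -0.567 (rho -0.518, permutation adjusted p 0.0027) and Itgav and Itgb6 had -0.427 (rho -0.402, permutation adjusted p 0.0359), and on log2(TPM + 1) these were -0.242 and -0.297 with adjusted p of 0.264 and 0.167. Leaving out ΔEcad male 5 and ΔEcad female 2, the latter pair had -0.387 (permutation adjusted p 0.0835). The rho of Itgav and Itgb6 had a permutation adjusted p of 0.0602. With group means subtracted, r was -0.285 for Itgav and Itgb6 (permutation adjusted p 0.288) and -0.545 for Itga10 and Itgb1 (permutation adjusted p 0.00465). Itga10 shares exons with Gm42957 on the same strand. Itgae and its ligand gene Cdh1 had 0.355 (rho 0.310, permutation adjusted p 0.0836), and 0.503 after group means were subtracted (permutation adjusted p 0.0419).

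**Figure D5:**
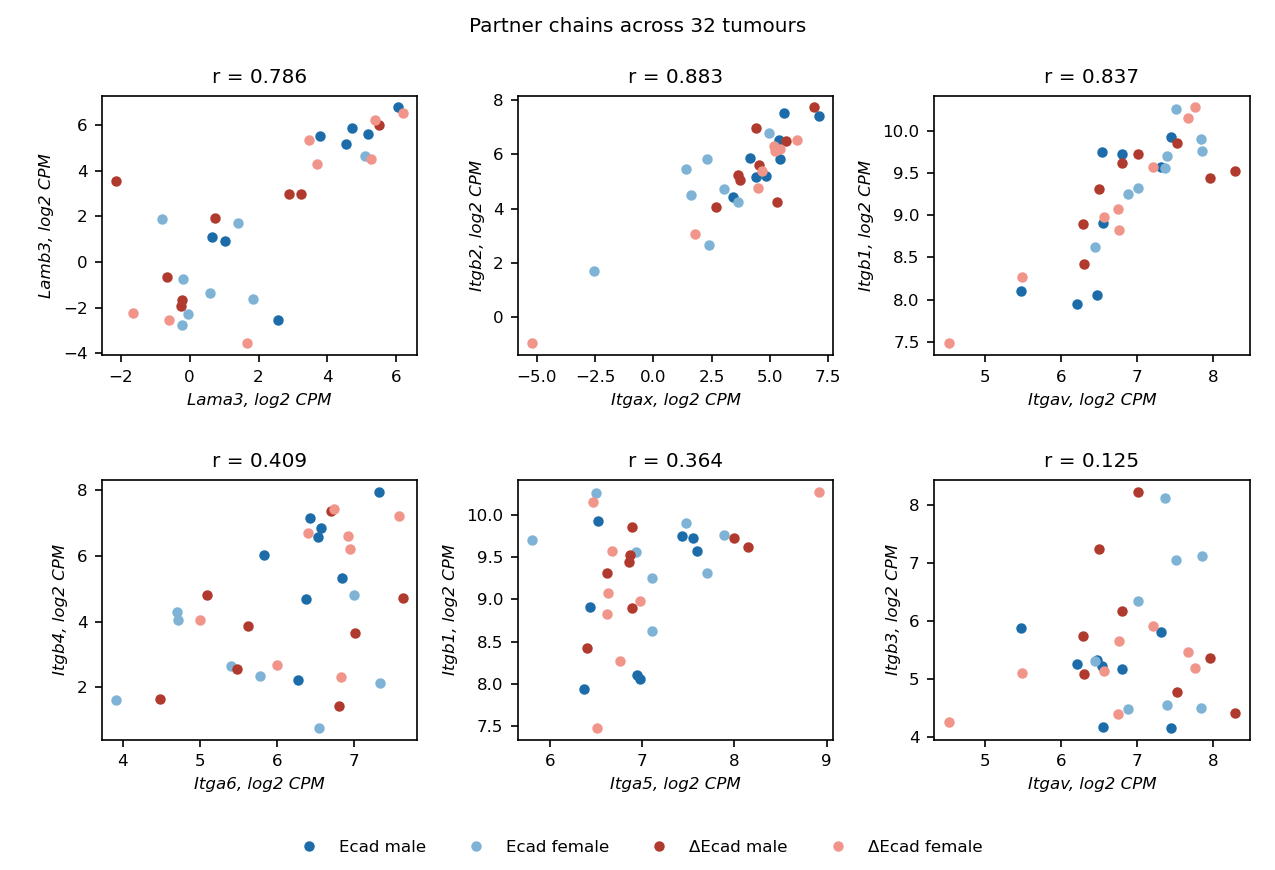
Partner pairs (6) across the 32 tumours, each point a tumour coloured by group, both axes in log2 CPM, with Pearson's r above. Points follow a line for Lama3 with Lamb3, Itgax with Itgb2 and Itgav with Itgb1 (r of 0.786, 0.883 and 0.837) and scatter for Itgav with Itgb3 (0.125).

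The members were last set against marker scores of 6 cell types (keratinocyte, melanocytic, macrophage, T cell, fibroblast and endothelial). These 216 relations were chosen after the levels had been seen. Other genes were not set against the scores, so the counts below have no share of all genes beside them. Of the 9 epithelial members, 7 were positively related to the keratinocyte score with both r and rho under an adjusted permutation p of 0.05, led by Lamb3 (r = 0.921, rho 0.877) and Itgb6 (0.914 and 0.936). Without the 2 Ecad females farthest from the median score, these r were 0.960 and 0.901, and with group means subtracted 0.916 and 0.896. Itga6 (0.283) and Itga2 (-0.26) were not. Within the groups, r of Itgb4 with the keratinocyte score was 0.716 in Ecad females, 0.973 in Ecad males, 0.987 in ΔEcad females and 0.289 in ΔEcad males. Of the 12 stromal, vascular and muscle members, 3 were positively related to the fibroblast score, Lama2 (r = 0.712, rho 0.739), Lamb1 (0.640 and 0.496) and Itga11 (0.630 and 0.591). The fibroblast score was also positively related to 4 of the 9 epithelial members, with r up to 0.740 for Itga6, and to 4 of the 8 leukocyte and platelet members. Of the 12 stromal, vascular and muscle members, Lamc3, Itga7 and Lama2 were positively related to the keratinocyte score (r = 0.699, 0.547 and 0.517) and Lama4 negatively (-0.482). Lama2 and Itga10 were negatively related to the melanocytic score (-0.535 and -0.473), passing on both r and rho. That score was 0.783 in ΔEcad male 7 and 7.877 or more in every other tumour. ΔEcad male 7 also had the second highest Lama2 (15.2 TPM) and Itga10 (3.28 TPM) of all tumours. How far these 2 relations rest on that tumour is not given here.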

How the data were processed

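Polyadenylated RNA from 32 mouse melanomas was sequenced in bulk from libraries made with a strand-marking kit. The authors' processing notes name FastQC 0.11.5 and STAR (version not given in the sources used here), with which the authors aligned reads to GRCm38.p5 and counted them per GENCODE M13 gene. The deposited tables hold raw counts and, for the same genes, TPM values as the authors computed them. Whether counting used the strand, and whether batch correction was applied to these tumours, are not given in the sources used here, so genes that share exons are uncertain. Symbols were taken from a GENCODE M21 table on GRCm38, which named 50376 of 50600 genes. In that annotation 12 of the 37 members shared exons with another gene, with Itga1, Itga10, Itgad and Itgam sharing them on the same strand. No column was without a sample.

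The members and lists were chosen with earlier results of these data known. Total counts were 24036333 to 63923086 per tumour. Counts were fitted over all 4 groups with edgeR 4.0.16 (R 4.3.3), using filterByExpr, TMM scaling and robust quasi-likelihood tests over 17717 genes. Calls were made at 0.05 after Benjamini-Hochberg adjustment, with at least a shift past 1 on the log2 scale in either direction. Log2 CPM used a prior count of 1. Correlations used 100000 permutations. A value at or under 3 counts is within what a count of 0 allows, for counting error only. Alternatives were DESeq2 1.42.0, limma 3.58.1 on log2(TPM + 1), RLE scaling, 2 other filters, no robust estimation, no fold threshold, only the tumours compared, a replicate block, keratinocyte and melanocytic scores as covariates and leaving out each tumour. Leaving out 3 doubted tumours, and the 216 marker relations, were added after the data had been seen. Scripts were tested on simulated data. Fold changes are named for the 5 members with the smallest p in the female genotype comparison and 3 in each other, and, in the listed pathway genes, for 3 in the former. Members that only an alternative called, and those given in descriptions of single tumours, were named after their values had been seen. Permutations ran in scipy 1.17.1 and numpy 2.4.6, tables in pandas 2.3.3 and plots in matplotlib 3.10.9, under Python 3.11.15. The values of 1 member are not reported here, though it stays in the counts over members.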

Additional observations from a re-analysis of the deposited data

Results flagged for a closer look

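Of 140 sets of 8 values (35 members in 4 groups, as log2 CPM), 12 held a tumour far from the other 7 by Dixon's criterion, in 6 tumours. Chance gives about 1 in 20 sets, and the members of a tumour are not independent.

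ΔEcad female 3 accounted for 5 of them. Its log2 CPM were -1.858 for Itgal, -5.192 for Itgam, -5.192 for Itgax and -0.99 for Itgb2, all below the rest of its group, and 8.917 for Itga5, above it. Itga5 was at 369 TPM there and at 55.4 to 75.7 TPM in the other ΔEcad females.

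Ecad female 5 was far above its group for Lama3 (5.091) and Itga11 (3.404). In TPM these were 9.51 and 6.17, where the other Ecad females reached 1.11 and 0.60.

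ΔEcad male 1 was far below its group for Itga2 (-2.128) and Lamc1 (4.704). ΔEcad male 2, the tumour that went against its sex label, was above its group for Itgb8 (4.082, or 3.14 TPM against at most 0.81). Ecad male 7 was below its group for Lama2 (2.124), and Ecad male 3 for Lamc3 (-5.192, listed at 0 TPM).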

How the results depend on the processing

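Of the log2 fold changes recomputed for the named members, 656 kept their direction and side of the threshold, 55 passed it under the alternative and 0 reversed. As no member was called in the main fit, an alternative could not lose a call, and a smaller estimate of the same sign counted as kept. In the female genotype comparison, the estimate of Itgb4 was 2.89 in the main fit and 0.332 at its lowest. Those of Itga3 and Itgb6 were 1.80 and 4.06, and 0.244 and 0.527 at their lowest. DESeq2 called 5 members in the female genotype comparison, 6 between sexes in Ecad and 6 in the interaction. RLE scaling, no filter and a filter of 10 counts in 8 tumours each called 1 member in the interaction, Itga7. Over all genes these fits called 201 of 17717, 284 of 33460 and 56 of 17835, where the main fit called 0. Without the 3 doubted tumours (added after seeing the data) 2 members were called in the female genotype comparison, with 569 of 18072 genes. Leaving out 1 tumour at a time gave 0 to 5 member calls in that comparison and 0 to 9 in the interaction, and 0 in the other comparisons. Counts over all genes are not given for the fits without 1 tumour, so their member calls cannot be set beside a share of all genes. In the female genotype comparison the tumours that brought calls were Ecad female 5 (5 calls), ΔEcad females 3, 4, 5 and 8 (2, 3, 4 and 1) and, with 1 each, Ecad males 3 and 7 and ΔEcad males 3, 7 and 8. In the interaction they were Ecad female 5 (9), Ecad males 3, 7 and 8 (3, 4 and 1), ΔEcad females 3, 4, 5 and 8 (5, 4, 5 and 1) and ΔEcad male 3 (6). The cause of these changes was not tested. Of 60 recomputed pair correlations, 50 kept their call and 10 lost it, and 12 to 15 of 36 pairs passed.

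The replicate block called 0 members in each comparison. Over all 17717 genes it called 1, 0, 8, 7 and 0 in the female genotype, male genotype, Ecad sex, ΔEcad sex and interaction comparisons. Replicate numbers did not pair the tumours: the 48 same-numbered pairs had a median correlation of deviations of 0.0418, with 18 over 0.1. On log2(TPM + 1) the median of all genes was 0.04, -0.16, -0.06, 0.15 and 0.18 in the female genotype, male genotype, Ecad sex, ΔEcad sex and interaction comparisons, against -0.02, 0.11, 0.05, -0.06 and -0.16 in the counts. Depth limits Itgad, Itgb6, Lamc3 and Lama1, with 26, 11, 6 and 5 tumours at or under 3 counts, and 1 tumour each for Lamb3 (ΔEcad female 4, 2 counts), Itgae, Itgam and Itgax (ΔEcad female 3).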
